A study of Mus musculus with 2 samples.

Results

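The genes described here assemble the neuromuscular junction, the synapse at which a motor nerve drives a muscle fibre. They are the 8 genes Agrn, Lrp4, Musk, Dok7, Rapsn, Ache, Colq and Etv5, chosen by name from a table of 44787 genes, and all 8 were found in it. The table compared RNA from hindlimb muscle of 1 mouse sample that was homozygous for a floxed Srsf2 allele and carried MyoD-Cre (the MyoD-Cre library) with 1 sample homozygous for the floxed allele alone (the floxed control library). The product of Srsf2 is a splicing factor of the SR family. Both groups carried the floxed alleles, and Cre, driven through Myod1 as its name says, was present in the first group alone. Cells outside the myogenic lineage should keep Srsf2 in such a model, and bulk tissue includes such cells. Their part in the Srsf2 level, and how completely Cre acted in myogenic cells, were not tested. Neither the age of the mice nor the number of animals behind a library is given in the sources used here.

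At this synapse, agrin released by the nerve binds LRP4 on the muscle surface, and LRP4 then activates the receptor tyrosine kinase MuSK. DOK7 binds MuSK inside the cell and is needed for its activity, and rapsyn gathers acetylcholine receptors beneath the nerve ending. Acetylcholinesterase ends each signal by splitting acetylcholine, and its collagen tail, encoded by Colq, ties it to the synaptic basal lamina. ETV5 (ERM) is an ETS transcription factor that takes part in expression of synaptic genes in the muscle nuclei under the nerve ending. Mutations in human genes for most of these proteins cause congenital myasthenic syndromes.

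The MyoD-Cre library held 76702198 reads and the floxed control library 69422626, of which 79.99% and 81.43% were mapped. Srsf2 itself was at 19.4 FPKM in the MyoD-Cre library and 31.1 FPKM in the floxed control library (FPKM, fragments normalised to gene length and library size), a ratio of 0.624. Each group is a single library, so differences have no replicate check and carry no p-value, and the words "higher" and "lower" speak of these 2 libraries alone. Intervals are 95% counting intervals from reads recovered from the FPKM values and cover counting error alone. In the MyoD-Cre library and the floxed control library, the summed level of 12 muscle fibre markers was 18946 and 33305 FPKM, with none at 0. The summed level of 14 keratinocyte markers, which muscle fibres lack, was 1998 and 12.6 FPKM, with 1 marker at 0 in the floxed control library. In bulk tissue, fewer cells of a type and less RNA per cell cannot be told apart.

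None of the 8 genes differed by 2-fold between the libraries as deposited, and their differences ran in both directions. The kinase and its activator, Musk and Dok7, and the esterase Ache were lower in the MyoD-Cre library, at 0.618, 0.633 and 0.568 of their floxed control levels. Agrn, Lrp4 and Colq were higher, with ratios of 1.26, 1.17 and 1.504. The counting intervals of these 6 ratios excluded 1, and those of Rapsn and Etv5 held it, which makes 3 below 1, 3 above and 2 that held it. After median-of-ratios scaling there were 4 below, 2 above and 2 that held it, with Rapsn now below and Lrp4 holding 1. With libraries scaled without the 50 most abundant genes there were 5, 2 and 1, with Etv5 also below, at a ratio of 0.886 (0.786 to 0.998). On the scale of log2(FPKM + 1), a gene met the rule of size when its difference reached 1 in either direction, and 0 of 8 members were higher and 0 were lower by it. Over all 13175 genes at 1 FPKM or more in either library, 2.68% were higher and 0.744% were lower by that rule. The median difference of the 8 genes was -0.08, and that of all measured genes was 0.18.

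**Figure D1:**
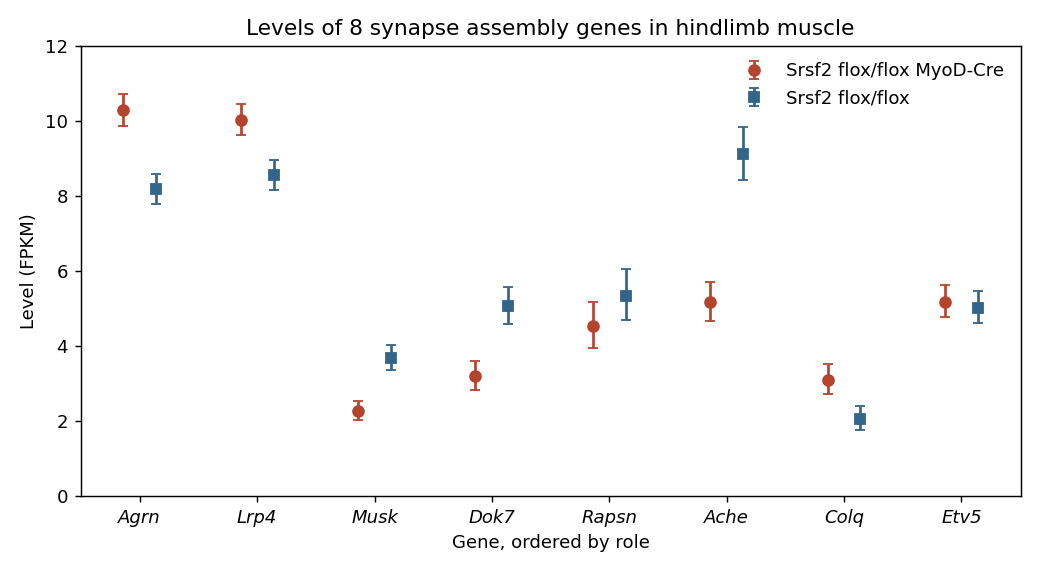
Level of each gene in FPKM (vertical axis, from 0) in the MyoD-Cre library (circles) and the floxed control library (squares), with genes ordered by role and bars giving exact 95% Poisson intervals of counting error in 1 library each. Musk, Dok7 and Ache lie lower in the MyoD-Cre library, and Agrn, Lrp4 and Colq lie higher.

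The median of all genes was not at 0, so the reading of small differences depends on the scaling. Scaling by the median of ratios, over genes at 1 FPKM or more in both libraries, divided ratios by 1.15. The counts of genes past the rule were 353 higher and 98 lower as deposited (78.3% higher). They were 278 and 174 (61.5% higher) after median-of-ratios scaling, and 275 and 184 (59.9% higher) when libraries were scaled without the 50 most abundant genes. Set against the median gene, which moves with any scaling as the members do, 3 of the 8 genes lay above it and 5 below it. Against the median of genes at 5 FPKM or more, 0.22, there were 2 above and 6 below.

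Agrn encodes the nerve and muscle proteoglycan that starts the pathway. It lies on chromosome 4, 156165290 to 156186229 on the minus strand. Agrn was at 10.3 FPKM (9.86 to 10.7) in the MyoD-Cre library and 8.18 FPKM (7.79 to 8.58) in the floxed control library, from 2175 and 1642 reads. Agrn was higher in the MyoD-Cre library, and the counting intervals of its levels did not overlap. The ratio was 1.26 (1.18 to 1.34) as deposited and 1.09 (1.02 to 1.16) after median-of-ratios scaling. The log2 difference of Agrn was 0.30, and 66.7% of measured genes had a lower one. The gene-level value sums all transcripts, so the nerve form of agrin, which carries extra exons, cannot be told apart from the muscle form.

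Lrp4, the agrin receptor, lies on chromosome 2, 91457511 to 91511549 on the plus strand. Lrp4 was at 10.03 FPKM (9.62 to 10.5) in the MyoD-Cre library and 8.55 FPKM (8.16 to 8.95) in the floxed control library. The ratio of Lrp4 was 1.17 (1.103 to 1.25) as deposited and 1.02 (0.955 to 1.08) after median-of-ratios scaling, where the interval held 1. Its log2 difference of 0.21 lay close to the median gene. Agrn and Lrp4 kept nearly equal levels in each library. The FPKM of Agrn was 1.03 times that of Lrp4 (0.967 to 1.09) in the MyoD-Cre library and 0.956 times (0.894 to 1.02) in the floxed control library.

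Agrin and LRP4 are also made outside muscle fibres, LRP4 in bone and skin among other tissues. Of 14 keratinocyte markers, 13 were measured at 1 FPKM or more in either library. By the rule, 12 of these were higher, against 2.68% of all measured genes. The summed level of 6 bone and cartilage markers was 135 FPKM in the MyoD-Cre library and 56.0 FPKM in the floxed control library, with none at 0. The summed level of 10 Schwann cell markers was 125 and 113 FPKM in those libraries, again with none at 0. The summed level of 4 genes of axon growth and neurofilaments, Gap43, Nefm, Nefl and Nefh, was 10.6 and 6.05 FPKM, with none at 0. The cells that made this RNA were not identified. Gap43, an axon growth protein, made up most of the sum, at 7.56 and 4.18 FPKM, and had a ratio of 1.81 (1.48 to 2.23). Nefm, a neurofilament, had a ratio of 1.64 (1.29 to 2.09). Nefl and Nefh, also neurofilaments, stayed under 1 FPKM in both libraries. Their ratios were 2.11 (1.41 to 3.22) for Nefl and 0.917 (0.526 to 1.60) for Nefh, which held 1. The part of these cells in the values of Agrn and Lrp4 was not tested.

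Musk encodes the muscle-specific kinase at the centre of the pathway, and lies on chromosome 4, 58285962 to 58356093 on the plus strand. Musk was at 2.28 FPKM (2.04 to 2.54) in the MyoD-Cre library and 3.68 FPKM (3.37 to 4.02) in the floxed control library. It was lower in the MyoD-Cre library, with no overlap of the counting intervals. The ratio of Musk was 0.618 (0.535 to 0.713) as deposited and 0.535 (0.464 to 0.617) after median-of-ratios scaling, from 321 and 493 reads, the floxed control value being rounded from a sum that included parts of reads. The log2 difference was -0.52, and 3.73% of measured genes had a lower one.

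Dok7, whose product holds MuSK in its active state, lies on chromosome 5, 35057084 to 35087831 on the plus strand. Dok7 was at 3.20 FPKM (2.84 to 3.61) in the MyoD-Cre library and 5.06 FPKM (4.59 to 5.58) in the floxed control library, from 275 and 413 reads. The ratio of 0.633 (0.541 to 0.739), or 0.548 (0.469 to 0.640) after median-of-ratios scaling, was nearly that of Musk. Musk and Dok7 thus stood in the same proportion in both libraries. The FPKM of Musk was 0.711 times that of Dok7 (0.603 to 0.838) in the MyoD-Cre library and 0.727 times (0.637 to 0.831) in the floxed control library.

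Relative to Lrp4, the bulk levels of Musk and Dok7 were lower in the MyoD-Cre library than in the floxed control library. The FPKM of Musk was 0.227 times that of Lrp4 (0.201 to 0.255) in the MyoD-Cre library, against 0.431 times (0.389 to 0.476) in the floxed control library. Dok7 was at 0.319 times the FPKM of Lrp4 (0.281 to 0.362), against 0.592 times (0.531 to 0.659). A ratio of 2 genes in 1 library is free of the scaling between libraries, and these intervals of the libraries did not overlap. The pairs join genes already seen to differ in opposite directions as deposited, so they are no separate result. LRP4 is also made outside muscle fibres, and the part of other cells in these ratios was not tested.

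Rapsn encodes rapsyn, which binds the intracellular side of acetylcholine receptors, and lies on chromosome 2, 91035459 to 91045729 on the plus strand. Rapsn was at 4.54 FPKM (3.96 to 5.18) in the MyoD-Cre library and 5.34 FPKM (4.70 to 6.05) in the floxed control library, from 221 and 247 reads. The intervals of the levels overlapped, and the ratio of 0.850 (0.706 to 1.02) held 1. After median-of-ratios scaling the ratio of Rapsn was 0.736 (0.611 to 0.886). The FPKM of Rapsn relative to that of Chrnb1, the receptor subunit it is best known to bind, was 0.229 (0.198 to 0.265) in the MyoD-Cre library and 0.209 (0.182 to 0.239) in the floxed control library, a difference within counting error.

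Ache, the esterase gene, had the largest difference of the 8 genes. It lies on chromosome 5, 137288277 to 137294463 on the plus strand, and the microRNA gene Mir8116 overlaps it on the same strand. Ache was at 5.17 FPKM (4.68 to 5.71) in the MyoD-Cre library and 9.11 FPKM (8.43 to 9.83) in the floxed control library, from 394 and 659 reads. The ratio of Ache was 0.568 (0.5001 to 0.645), and its log2 difference of -0.71 was short of the 2-fold rule. After median-of-ratios scaling the ratio of Ache was 0.492 (0.433 to 0.558), past 2-fold as a plain ratio, while the log2 difference with its pseudocount, -0.89, still missed the rule. Among measured genes, 1.91% had a lower difference. With a 1.5-fold rule in place of the 2-fold rule, Ache was the 1 member called, where 2.91% of all measured genes were called lower and 9.15% higher. The plain ratios of Musk, Dok7 and Colq were also past 1.5-fold, and these genes went uncalled through the pseudocount of 1 FPKM. With a pseudocount of 0.1 FPKM the differences of Musk, Dok7 and Colq were -0.67, -0.64 and 0.57. The mRNA genes nearest to Ache over the 2 libraries, by Euclidean distance on the log2(FPKM + 1) scale, were Phka1, Asb5 and Rgs5, at distances of 0.048, 0.056 and 0.11. Phka1 encodes the muscle form of a phosphorylase kinase subunit and was at 5.31 FPKM in the MyoD-Cre library and 8.86 FPKM in the floxed control library.

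Colq, which supplies the collagen tail of the same enzyme, went the other way. It lies on chromosome 14, 31529541 to 31577358 on the minus strand. Colq was at 3.10 FPKM (2.73 to 3.52) in the MyoD-Cre library and 2.06 FPKM (1.75 to 2.41) in the floxed control library, from 247 and 156 reads. The ratio of 1.504 (1.23 to 1.85) was the highest of the 8 genes, and it stayed above 1 after median-of-ratios scaling, at 1.30 (1.06 to 1.60). The log2 difference of Colq was 0.42, and 80.4% of measured genes had a lower one. The FPKM of Colq was 0.6001 times that of Ache (0.510 to 0.705) in the MyoD-Cre library, against 0.227 times (0.189 to 0.270) in the floxed control library. The nearest mRNA genes to Colq over the 2 libraries were Rgs4, Prr11 and Sec16b, at distances of 0.012, 0.013 and 0.018.

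Etv5, the transcription factor, lies on chromosome 16, 22381313 to 22437362 on the minus strand. Etv5 was at 5.18 FPKM (4.77 to 5.62) in the MyoD-Cre library and 5.02 FPKM (4.61 to 5.47) in the floxed control library. The levels overlapped, with a ratio of 1.03 (0.915 to 1.16). The log2 difference of 0.04 changed sign under both scalings. After median-of-ratios scaling the ratio of Etv5 was 0.893 (0.793 to 1.01).

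**Figure D2:**
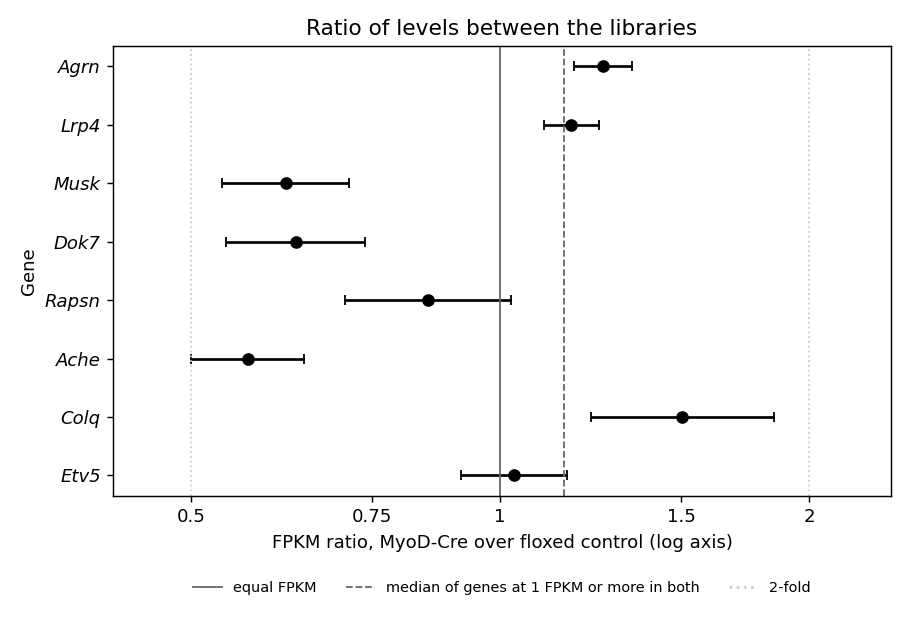
Ratio of FPKM in the MyoD-Cre library over the floxed control library for each gene (horizontal log axis), with bars giving 95% counting intervals. The solid line marks equal FPKM, the dashed line the median ratio of genes at 1 FPKM or more in both libraries (1.15), and the dotted lines 2-fold, which no gene passed.

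The order of the levels differed between the libraries. In the MyoD-Cre library it ran Agrn, Lrp4, Etv5, Ache, Rapsn, Dok7, Colq and Musk, from 10.3 to 2.28 FPKM. Neighbours with overlapping counting intervals there were Agrn and Lrp4, Etv5 and Ache, Ache and Rapsn, and Dok7 and Colq. In the floxed control library the order was Ache, Lrp4, Agrn, Rapsn, Dok7, Etv5, Musk and Colq, from 9.11 to 2.06 FPKM. Overlapping neighbours there were Ache and Lrp4, Lrp4 and Agrn, Rapsn and Dok7, and Dok7 and Etv5. Ache was thus at the top of the floxed control order beside Lrp4 and Agrn, and in the MyoD-Cre library it stood with Etv5 and Rapsn. All 8 genes were of middling abundance in this tissue. Between 23.0% and 66.6% of measured genes lay below them in the MyoD-Cre library, and between 24.0% and 67.4% in the floxed control library.

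The 3 genes that were lower in the MyoD-Cre library with a counting interval that excluded 1 as deposited, Musk, Dok7 and Ache, are shown by the 250 bases before their most upstream RefSeq start (build GRCm38.p6), to set the sequences before these starts beside their shared direction. Capitals mark matches to the E-box CANNTG on either strand. Myogenic factors such as MyoD and myogenin bind some forms of this motif, and a match does not tell which factor, if any, binds. The windows are chr4:58285712-58285961 on the plus strand for Musk, chr5:35056516-35056765 on the plus strand for Dok7 and chr5:137288004-137288253 on the plus strand for Ache. The deposited spans of Dok7 and Ache begin downstream of these starts. Those of Agrn and Etv5, on the minus strand and with windows only counted below, do so by more. Agrn begins at 156186229 against a RefSeq start of 156197488, and Etv5 at 22437362 against 22439570.

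Musk: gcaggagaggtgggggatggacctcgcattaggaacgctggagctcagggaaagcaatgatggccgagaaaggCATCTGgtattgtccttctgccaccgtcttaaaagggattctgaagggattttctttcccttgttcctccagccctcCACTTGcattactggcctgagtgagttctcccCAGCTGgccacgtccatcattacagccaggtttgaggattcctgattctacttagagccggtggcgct
Dok7: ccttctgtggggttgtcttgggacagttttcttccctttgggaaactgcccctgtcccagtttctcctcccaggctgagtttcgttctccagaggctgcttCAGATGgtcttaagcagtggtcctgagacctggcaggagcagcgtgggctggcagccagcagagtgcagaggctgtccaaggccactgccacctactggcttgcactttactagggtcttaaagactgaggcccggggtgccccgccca
Ache: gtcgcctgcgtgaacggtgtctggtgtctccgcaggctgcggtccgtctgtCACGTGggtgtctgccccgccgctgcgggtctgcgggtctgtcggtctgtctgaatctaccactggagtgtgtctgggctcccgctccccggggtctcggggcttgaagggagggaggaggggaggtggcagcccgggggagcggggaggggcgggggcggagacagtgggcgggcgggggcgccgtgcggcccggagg

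Musk held 3 E-box matches, beginning 177, 100 and 68 bases before the start, Dok7 held 1 at 149 bases and Ache held 1 at 199 bases. Lrp4, Colq and Rapsn had no window in the RefSeq table. Of Agrn, Lrp4 and Colq, which were higher in the MyoD-Cre library, only Agrn was thus searched. Among the other members with a window, Etv5 held 2 matches. Agrn, whose window was 83.6% G and C, held 0 matches. Such a match is common: 66.2% of 32851 windows of the same length in the RefSeq table held at least 1. The N-box CCGGAA, the motif through which ETS factors such as GABP act on synaptic genes, was searched on both strands and had 0 matches in the 5 windows. It was present in 12.03% of all windows. A match of one motif cannot overlap a match of the other. Myog, the myogenin gene, was at 41.99 FPKM in the MyoD-Cre library and 53.8 FPKM in the floxed control library. Binding was not measured, and a match says nothing of use.

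The genes around the 8 members were taken in 7 lists, whose counts above 0 are to be read against the 73.0% of all measured genes that lay above 0. The muscle acetylcholine receptor subunits form the pentamer that rapsyn gathers. Of the 4 measured, 2 were above 0 and 2 below, and 0 passed the rule in either direction. Chrng, the fetal subunit, was at 20.95 FPKM in the MyoD-Cre library and 11.6 FPKM in the floxed control library, a ratio of 1.80 (1.68 to 1.93). Chrnd was at 9.48 and 6.34 FPKM, Chrna1 at 13.3 and 14.3 FPKM, and Chrnb1 at 19.8 and 25.6 FPKM in those libraries. Chrne, the adult subunit, was under 1 FPKM in both, at 0.0878 FPKM from 5 reads in the MyoD-Cre library and 0.776 FPKM from 42 reads in the floxed control library. The deposited table places Chrne on the scaffold nt_187026, whereas GENCODE M21 places it on chromosome 11, so what these 2 values count is uncertain.

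The postsynaptic scaffold and membrane list lay low. Of its 11 measured genes, 10 were below 0 and 1 above, 0 passed the rule, and the median difference was -0.28 against 0.18 for all measured genes. Sntb1, a syntrophin, was at 17.3 FPKM in the MyoD-Cre library and 29.2 FPKM in the floxed control library, the lowest difference of the list. Dtna, alpha-dystrobrevin, which steadies receptor clusters, was at 5.86 and 9.04 FPKM, a ratio of 0.648 (0.5997 to 0.701). Sntb2, another syntrophin, was the member above 0, at 4.04 FPKM in the MyoD-Cre library and 2.86 FPKM in the floxed control library. Syne1, a nuclear envelope protein that anchors synaptic nuclei, was at 6.74 and 6.78 FPKM.

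The synaptic basal lamina list, which holds the matrix that the tail encoded by Colq binds, was close to the share of all genes. Of its 10 measured genes, 8 were above 0 and 2 below, 7 were above the median gene, 0 passed the rule, and the median difference was 0.29. Nid2, a nidogen, was at 23.8 FPKM in the MyoD-Cre library and 17.1 FPKM in the floxed control library. Col4a5, a basement membrane collagen chain, was at 1.61 and 0.975 FPKM. Dag1, dystroglycan, which binds agrin at the cell surface, was at 43.2 and 50.6 FPKM, and Bche, butyrylcholinesterase, at 2.26 and 2.61 FPKM. The summed level of 5 fibroblast markers was 3443 FPKM in the MyoD-Cre library and 2133 FPKM in the floxed control library, with none at 0, and their part in this list or in Colq was not tested.

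Partners of MuSK signalling lay close to the median gene. Of 19 genes, all measured, 15 were above 0 and 4 below, 0 passed the rule, and the median difference was 0.15. The deposited coordinates place Dvl2 and Csnk2b, both above 0, on scaffolds, so what their values count is uncertain, as for Chrne. Dnaja3 (Tid1), which binds MuSK, was at 9.33 FPKM in the MyoD-Cre library and 13.8 FPKM in the floxed control library, a ratio of 0.674 (0.611 to 0.744). Crk, an adaptor recruited by DOK7, was at 5.48 and 7.20 FPKM. Fyn, a Src family kinase, was at 29.8 and 22.6 FPKM, and Rhoa, a small GTPase, at 97.6 and 75.4 FPKM, the highest differences of the list.

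The list of synaptic transcription and neuregulin signalling had a median difference of 0.21, with 8 of 11 measured genes above 0, 3 below and 0 past the rule. Gabpb1, a subunit of the ETS factor GABP, was at 7.69 FPKM in the MyoD-Cre library and 5.18 FPKM in the floxed control library. Etv1, a relative of Etv5, was at 1.29 and 0.703 FPKM, and Etv4, of the same subfamily, at 1.38 and 1.66 FPKM. The ratio of Etv4 was 0.827 (0.620 to 1.1005), which held 1.

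Of 12 further congenital myasthenia genes, 7 were measured, with 4 above 0 and 3 below and a median difference of 0.04. Slc25a1, the mitochondrial citrate carrier, was the 1 gene higher by the rule in all 7 lists, at 9.77 FPKM in the MyoD-Cre library and 2.86 FPKM in the floxed control library. The deposited coordinates place Slc25a1 on the scaffold nt_187007 and not on a chromosome, so what its values count is uncertain, as for Chrne. Citrate export also feeds fat synthesis, and the summed level of 5 adipocyte markers was 566 and 281 FPKM in those libraries, with none at 0; their part in the value of Slc25a1 was not tested. Prepl, a serine peptidase relative, was at 26.6 and 38.7 FPKM. Gmppb and Dpagt1, of protein glycosylation, were at 1.59 and 2.03 FPKM and at 1.93 and 1.63 FPKM. The genes of the nerve ending in this list, did not reach 1 FPKM, and Chat, which makes acetylcholine and is named here after its values were seen, was listed at 0 in both libraries.

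The list of Wnt type and other regulators of Lrp4 and MuSK had a median difference of 0.29, which was the value of App. Of its 9 measured genes, 6 were above 0, 3 below and 0 past the rule. Those above 0 included App, Aplp2, Lgr5 and Mesdc2 (Mesd), which are not Wnt ligands. The 3 below were the Wnt ligands Wnt4, Wnt9a and Wnt11. Sfrp1, a secreted Wnt inhibitor, was at 5.97 FPKM in the MyoD-Cre library and 4.12 FPKM in the floxed control library, and Rspo2, a Wnt enhancer, at 1.43 and 0.864 FPKM. Wnt4, a ligand that binds MuSK, was at 2.73 and 3.95 FPKM, and Wnt9a at 2.01 and 2.78 FPKM.

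**Figure D3:**
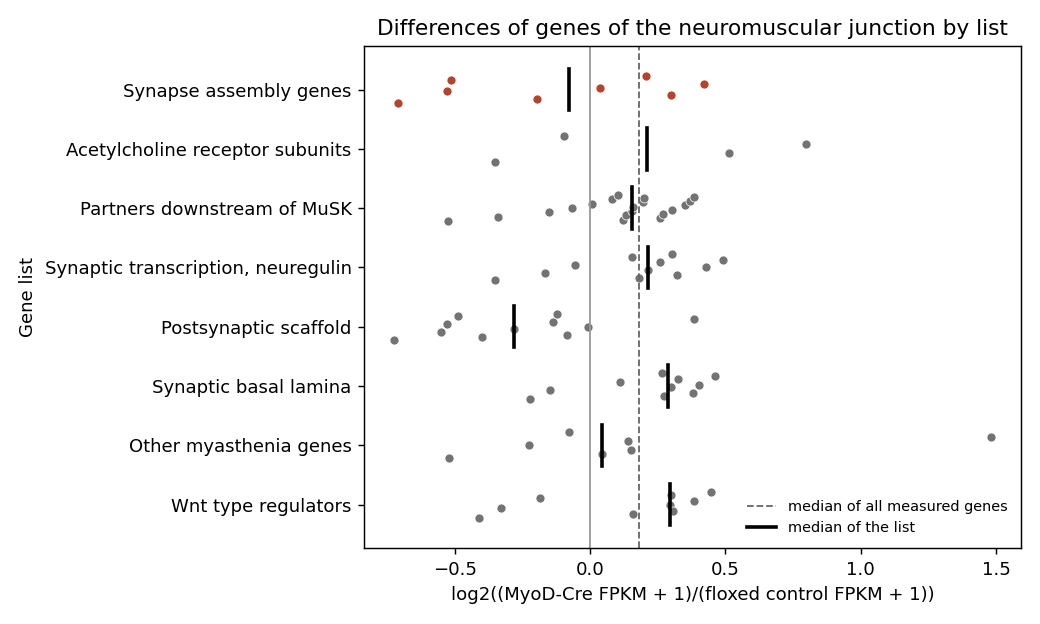
Difference of each measured gene, log2((MyoD-Cre FPKM + 1)/(floxed control FPKM + 1)) on the horizontal axis, by gene list on the vertical axis. Each point is 1 gene, black bars are list medians and the dashed line is the median of all measured genes (0.18). The postsynaptic scaffold list lies lowest, with a median of -0.28, and the 8 synapse assembly genes are spread from -0.71 to 0.42.

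Beside the lower values of Musk, Dok7, Ache and the postsynaptic scaffold stand those of muscle fibre markers. Of 12 fibre markers, 10 were below 0 and 3 were lower by the rule, against 0.744% of all measured genes. The markers had a median difference of -0.79. The ratio of their summed FPKM was 0.569, close to the ratio of Ache (0.568) and below those of Musk and Dok7. That sum was carried mainly by Myh8, Acta1 and Tnnt3, and Myh8, a perinatal myosin, was at 6684 FPKM in the MyoD-Cre library and 15047 FPKM in the floxed control library. Single markers differed, with a ratio of 0.904 for Des, 1.16 for Myh3 and 1.18 for Tnnt1. The part of fibre content in the values of the synapse genes was not tested.

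**Figure D4:**
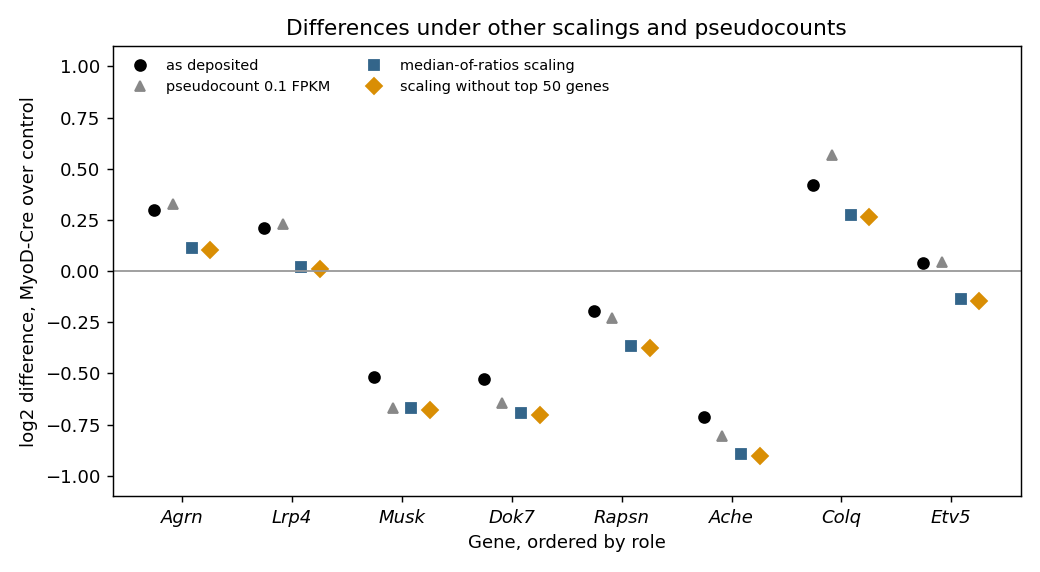
Log2 difference of each gene, MyoD-Cre over floxed control (vertical axis), with FPKM as deposited, with a pseudocount of 0.1 FPKM, and after 2 scalings of the libraries. Musk, Dok7, Rapsn and Ache lie below 0 and Agrn and Colq above 0 in all 4, while Lrp4 comes to 0.021 and 0.010 after scaling and Etv5 changes sign.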

How the data were processed

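The authors deposited 1 table of FPKM values per gene, which are normalized to gene length and library size, and per library a list of read counts by chromosome and class, per the file headers. Bowtie 0.12.2 and mm9 appear in the submitters' processing notes, with no role. The table's coordinates fit GRCm38: all 8 members overlap their GENCODE M21 genes. For the counting tool, strand setting and annotation, the sources used here say nothing.

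FPKM values were used as deposited, through log2((MyoD-Cre + 1)/(floxed control + 1)), which understates differences of low genes. Genes that reached 1 FPKM in either library were called measured, and a difference of at least 1 met the rule of size.

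The value of 1 read was recovered: 1 FPKM is relative to 28060573 reads (MyoD-Cre) and 26659452 (floxed control). The smallest gene length that gives whole reads in both libraries was found for 95.8% of 26405 genes above 0, within a relative tolerance of 2e-14. It was multiplied or divided to the whole length nearest the longest coding transcript in GENCODE M21. Division gave reads in parts (Musk, Etv5), and read numbers and intervals depend on that choice. Ratio intervals are Clopper-Pearson and level intervals exact Poisson. Recovery, rule and intervals were tested on simulated data.

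The members and lists were chosen with earlier results of these data known. Named are all members, all receptor subunits and the 2 highest and 2 lowest measured genes of each other list. Others, such as Chat, App and Dvl2, were named after their values were seen. Sequences are from RefSeq (GRCm38.p6); 5 of 8 members matched. Scripts ran under Python 3.11.15 with pandas 2.3.3, numpy 2.4.6, matplotlib 3.10.9 and scipy 1.17.1.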

Additional observations from a re-analysis of the deposited data

How the results depend on the processing

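With 1 library per group, none could be left out. No paired analysis was possible because there was a single sample on either side. The number of members past the 2-fold rule was 0 higher and 0 lower under every alternative but the 1.5-fold rule, under which 1 was lower. Single genes are listed below where the log2 difference shifted by more than the distance from the middle of its counting interval to either end. The median of the members is listed where it shifted by more than the median of those distances. Counts over all genes are listed where they changed by more than 1.5-fold, which is no measure of counting error. The cause of these shifts was not tested beyond the construction of each alternative. A pseudocount of 0.1 FPKM gave Musk -0.67. Median-of-ratios scaling gave Agrn 0.11, Lrp4 0.021, Musk -0.67, Ache -0.89, Etv5 -0.14 and a median of -0.25 over the members. Scaling without the 50 most abundant genes gave Agrn 0.10, Lrp4 0.010, Musk -0.68, Dok7 -0.70, Ache -0.90, Etv5 -0.15 and a median of -0.26. Over all genes, 613 were higher and 204 lower with a pseudocount of 0.1 FPKM, 1205 and 383 with the 1.5-fold rule, and 169 and 54 at 5 FPKM or more. Lower genes numbered 174 and 184 under the 2 scalings and 56 when the counting interval had to exclude 1. Genes without an interval could not be called in that last count, and 11763 of 13175 measured genes had one. Myh8, Myh1 and Myh4, lower by the rule as deposited, were among those without an interval, so the fall to 56 is not counting error alone. Low read numbers limit Rapsn, Colq and Dok7 most.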
